A study of Homo sapiens with 4 samples.

Results

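The genes described are 3 receptors of the ERBB family (EGFR, ERBB2 and ERBB3), the receptors for IGF1 and insulin (IGF1R and INSR) and the adaptors IRS1 and IRS2, found by Entrez Gene identifier in a table of 19801 genes. All 7 were present in every library. They were chosen by name, not by a measured value, though with earlier results of these data known. LNCaP, a human prostate cancer line that responds to androgen, was transfected for 24 h with an empty vector or with the expression construct AR1-651, and then left untreated or given Ailanthone (AIL) for 12 h. Each of the 4 conditions was sequenced as 1 library. The spread between cultures is therefore unknown, and p-values were not computed. All libraries thus come from transfected cells, and AIL was never given without a plasmid. For prostate cancer cells the paper's general culture methods give a medium with serum unless stated otherwise.

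ERBB receptors bind ligands of the EGF family and signal as pairs. ERBB2 has no known ligand of its own and ERBB3 has a weak kinase, yet the pair of them is a strong activator of PI3K. IGF1R and INSR are closely related kinases that phosphorylate IRS1 and IRS2, which in turn recruit PI3K.

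Transcript levels are given as RPKM (reads per kilobase of exon, scaled to the mapped reads of the library), the unit deposited. Since short genes with few reads take values at whole multiples of 1 step, the RPKM worth of 1 read could be found in each library, and the estimated depth, in units of 1e6 reads, was 5.17 (empty vector), 4.91 (its AIL library), 5.63 (AR1-651) and 5.81 (AR1-651 + AIL). Each level below therefore carries an exact 95% Poisson interval and each ratio an exact 95% interval, which cover counting error only and neither the spread between cultures nor differences in library preparation. The read numbers rest on annotated transcript lengths and are approximate. Fewer cells with a transcript and less of it per cell cannot be told apart in bulk RNA. All 8 prostate luminal markers searched were at 1 RPKM or more in every library, with a summed RPKM of 970 to 2996, against 6.12 to 8.74 for 10 markers of other cells, of which 1 to 3 were at 0. With AIL 3 of the 8 luminal markers were at least 2-fold lower in empty vector cells and 5 in AR1-651 cells. Of the genes that reached 1 RPKM in a library, 9.03% and 5.74% were that low. Among the markers of other cells SYP, a neuroendocrine marker, went from 0.880 to 4.98 and from 2.50 to 4.49 RPKM. CHGA, also a neuroendocrine marker, was at 0 without and with AIL in empty vector cells, and at 0.09 and 0 in AR1-651 cells. COL1A1 went from 4.59 to 2.21 and from 2.05 to 1.75 RPKM. The part of these markers in the results was not tested. KLK3, an androgen-regulated gene, had 286.6 RPKM and, given AIL, 303 in empty vector cells, and 1442 and 582 in AR1-651 cells. The directions given for AR1-651 rest on the labels.

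The promoters of INSR, IRS1 and IGF1R are shown because their transcripts moved in opposite directions with AIL while the sequences share one feature. They give the 250 bases before the transcription start in RefSeq on GRCh38.p14, 5′ to 3′, and the capitals mark each GGGCGG or its reverse complement CCGCCC.
INSR, chr19:7294415-7294664, minus strand: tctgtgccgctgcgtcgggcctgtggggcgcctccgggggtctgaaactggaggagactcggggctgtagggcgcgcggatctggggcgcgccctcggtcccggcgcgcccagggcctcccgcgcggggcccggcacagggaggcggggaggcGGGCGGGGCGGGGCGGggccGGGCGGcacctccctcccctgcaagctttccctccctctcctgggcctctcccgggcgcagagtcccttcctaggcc
IRS1, chr2:226799821-226800070, minus strand: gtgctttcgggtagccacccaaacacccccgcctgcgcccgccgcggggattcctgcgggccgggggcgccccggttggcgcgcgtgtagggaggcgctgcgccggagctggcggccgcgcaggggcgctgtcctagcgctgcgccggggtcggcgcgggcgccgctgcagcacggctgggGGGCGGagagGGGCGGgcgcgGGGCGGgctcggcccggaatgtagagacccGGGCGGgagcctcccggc
IGF1R, chr15:98648289-98648538, plus strand: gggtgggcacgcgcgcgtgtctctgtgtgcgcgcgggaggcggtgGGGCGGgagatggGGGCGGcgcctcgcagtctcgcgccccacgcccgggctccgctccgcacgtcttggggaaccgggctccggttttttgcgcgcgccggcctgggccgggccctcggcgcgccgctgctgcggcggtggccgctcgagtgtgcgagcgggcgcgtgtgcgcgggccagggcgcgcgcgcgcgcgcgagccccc
In windows of 300 bases that also take in 50 bases after the start, GGGCGG was found 4 times for INSR, 4 times for IRS1, 2 times for IGF1R, 5 times for IRS2 and 3 times in the first EGFR window, and in 45.0% of 35116 windows of all genes. The G + C content of these windows was 75.3% to 79.7%, above the median of 58.7% over all windows. The ERBB2 window held no GGGCGG and had 60.7% G + C. The full palindromic androgen response element, 2 facing arms of AGAACA, was in none of the windows of the 6 genes that had one, and in 1 window of all genes. The arm AGAACA alone was found 1 time in the ERBB2 window and 1 time in the second EGFR window (14.8% of all windows), and the FOXO motif GTAAACA in none (3.42% of all windows). Both strands were searched, every full element also counts as this arm on each strand, and a match is only a description of the letters.

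Among the receptors, ERBB2 (Entrez Gene 2064, chromosome 17, 39687914 to 39730426, plus strand on GRCh38) was the most abundant. In empty vector cells its RPKM was 64.2 untreated and 32.5 given AIL, and in AR1-651 cells 26.0 and 15.3, from an estimated 1580, 757, 696 and 422 reads. The counting intervals of the 4 libraries did not overlap, so that empty vector was highest and AR1-651 + AIL lowest beyond counting error. With AIL the ratio was 0.505 (interval 0.463 to 0.551) in empty vector cells and 0.587 (0.520 to 0.665) in AR1-651 cells. Between AR1-651 and empty vector it was 0.405 (0.370 to 0.443) without AIL and 0.470 (0.417 to 0.531) with AIL.
ERBB3 (Entrez Gene 2065, chromosome 12, 56076799 to 56103505, plus strand), the kinase-weak partner that carries several docking sites for PI3K, was second. Its RPKM went from 26.3 untreated to 14.1 given AIL in empty vector cells and from 16.6 to 10.2 in AR1-651 cells. Empty vector was again highest and AR1-651 + AIL lowest, while the intervals of the other two libraries, 12.8 to 15.6 and 15.2 to 18.0, overlapped. With the shortest annotated transcript, the interval for AR1-651 + AIL over empty vector + AIL took in 1 (0.502 to 1.04). The ratio with AIL was 0.538 (0.477 to 0.607) in empty vector cells and 0.617 (0.537 to 0.705) in AR1-651 cells.
EGFR (Entrez Gene 1956, chromosome 7, 55019021 to 55211628, plus strand), the receptor of EGF itself, was far less abundant and behaved otherwise. In empty vector cells its RPKM was 4.74 untreated and 4.63 given AIL, in AR1-651 cells 2.50 and 3.58. The libraries with empty vector could not be told apart (ratio 0.977, interval 0.809 to 1.18). In AR1-651 cells the level was higher with AIL by a ratio of 1.43 (1.14 to 1.78), although with the shortest annotated transcript, which gives fewer reads, the interval took in 1 (0.795 to 2.55).
Of the summed RPKM of the 3 ERBB receptors, ERBB2 held 67.4% and, given AIL, 63.4% in empty vector cells, and 57.7% and 52.5% in AR1-651 cells. EGFR held 4.98%, 9.04%, 5.54% and 12.3% in the same order. The sum itself was 95.2, 51.2, 45.1 and 29.1 RPKM in that order. The share of EGFR was highest where the sum was lowest. Between the middle libraries, however, empty vector + AIL had both the higher sum and the higher share of EGFR.

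INSR (Entrez Gene 3643, chromosome 19, 7112255 to 7294034, minus strand), the insulin receptor, had the lowest ratio with AIL of the 7 genes in both backgrounds, though its interval overlapped that of IGF1R in both and those of ERBB2 and ERBB3 in AR1-651 cells. Its RPKM went from 4.09 to 1.11 with AIL in empty vector cells and from 1.70 to 0.670 in AR1-651 cells. The empty vector library stood above the others with no overlap, and the intervals of empty vector + AIL (0.829 to 1.48) overlapped those of both libraries labelled AR1-651. The ratio with AIL was 0.271 (0.195 to 0.376) in empty vector cells and 0.394 (0.261 to 0.598) in AR1-651 cells.
IGF1R (Entrez Gene 3480, chromosome 15, 98648539 to 98964530, plus strand), the IGF receptor, was low in every library, at 1.23 and, given AIL, 0.520 RPKM in empty vector cells and 1.06 and 0.450 in AR1-651 cells, from an estimated 78, 31, 73 and 32 reads. Both libraries with AIL lay below both without. The ratio with AIL was 0.423 (0.267 to 0.643) in empty vector cells and 0.425 (0.271 to 0.652) in AR1-651 cells, whereas between AR1-651 and empty vector it was 0.862 (0.616 to 1.198), not detectable at this depth. INSR exceeded IGF1R by 3.33-fold with empty vector and by 1.49-fold with AR1-651 + AIL.

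IRS1 took the opposite course with AIL to the receptors that phosphorylate it. This adaptor (Entrez Gene 3667, chromosome 2, 226731317 to 226799759, minus strand) went from 1.55 to 2.76 RPKM with AIL in empty vector cells and from 0.570 to 2.08 in AR1-651 cells, an estimated 78, 131, 31 and 117 reads. Both libraries with AIL were higher than both without, and the intervals overlapped between empty vector (1.23 to 1.95) and AR1-651 + AIL (1.72 to 2.50). The ratio with AIL was 1.78 (1.33 to 2.37) in empty vector cells and 3.65 (2.45 to 5.63) in AR1-651 cells. IRS1 was also the member with the lowest ratio of AR1-651 to empty vector, 0.368 (0.233 to 0.560), an interval that also held the ratios of ERBB2, INSR and EGFR, and with AIL that ratio was 0.754 (0.583 to 0.976).
IRS2 (Entrez Gene 8660, chromosome 13, 109752698 to 109786568, minus strand) had 0.530 RPKM untreated and 0.730 given AIL in empty vector cells, 0.740 and 0.910 in AR1-651 cells, and was the only member under 1 RPKM in all libraries. The estimated 22, 29, 34 and 43 reads gave overlapping intervals throughout, which alone does not show equal levels. The ratio interval of IRS2 took in 1 in each comparison made. With AIL the ratio was 1.38 (0.771 to 2.54) in empty vector cells and 1.23 (0.764 to 1.98) in AR1-651 cells. Between AR1-651 and empty vector it was 1.40 (0.807 to 2.55) without AIL and 1.25 (0.764 to 2.08) with AIL. AR1-651 + AIL was not compared with untreated empty vector. The level of IRS1 relative to INSR, both per length, went from 0.379 to 2.49 with AIL in empty vector cells, and from 0.335 to 3.10 in AR1-651 cells.

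**Figure D1:**
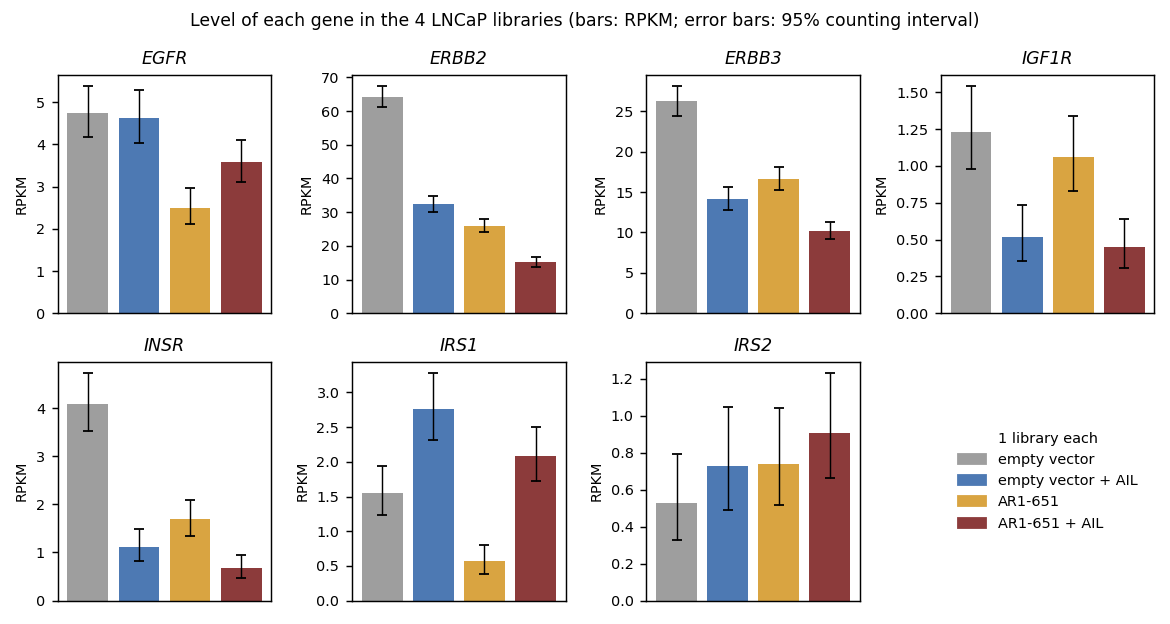
Bars give the RPKM of each gene in 1 library per condition, with exact 95% counting intervals; each panel has its own axis from 0. ERBB2, ERBB3, INSR and IGF1R are lower in the libraries with AIL than in their untreated partners, IRS1 is higher (2.76 against 1.55 and 2.08 against 0.570 RPKM), and the intervals of IRS2 overlap in all 4 libraries.

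Which members AIL changed in cells without AR1-651 was asked first. The counting interval lay below 1 for 4 of 7 genes (ERBB2, ERBB3, IGF1R and INSR), as it did for 31.6% of 14005 genes with a known length, and above 1 for IRS1, as for 32.1%. On the log2(RPKM + 1) scale, which understates the change of low genes such as IGF1R, the median change of the 7 genes was -0.55, against -0.02 over the 14626 genes that reached 1 RPKM somewhere, called all genes below. By this scale 1 member was at least 2-fold lower, INSR at -1.27 (9.03% of all genes), with ERBB2 at -0.96 just outside the threshold, and none was at least 2-fold higher (9.53% of all genes). IRS2 stayed under 1 RPKM and could not count towards such calls. By transcript length, the median change went from 0.13 in the shortest sixth of genes to -0.24 in the longest. That longest sixth holds 5 of the 6 members that reached 1 RPKM. With length and GC content accounted for, the median of those 6 members was -0.43, against -0.02 over genes with a known length.
The same question in cells labelled AR1-651 gave the same 4 genes below 1, against 24.5% of the genes with a known length, and IRS1 and EGFR above 1, against 39.8%. None of the 7 genes was at least 2-fold lower, against 5.74% of all genes, and none at least 2-fold higher, against 14.9%. IRS1 at 0.97 and ERBB2 at -0.73 came nearest. The median change of the 7 genes was -0.51, whereas the median of all genes was 0.13. Here the median went from -0.02 in the shortest sixth of genes by length to 0.33 in the longest. With length and GC content accounted for, the median of the 6 members that reached 1 RPKM was -0.58, against -0.03 over genes with a known length. In both backgrounds 4 of 7 genes were thus lower with AIL, the direction 32.2% of all genes took in both. None was at least 2-fold lower in both, against 2.93% of all genes, and IRS1 and IRS2 were higher in both, as were 38% of all genes. These 2 comparisons share no library.
The change with AIL was less negative or more positive in AR1-651 cells than in empty vector cells for 6 of 7 genes, as for 60.2% of all genes. The difference, AR1-651 minus empty vector, was 0.58 for INSR, 0.42 for EGFR, 0.41 for IRS1, 0.23 for ERBB2, 0.20 for ERBB3, 0.05 for IGF1R and -0.04 for IRS2, with a median of 0.14 over all genes. With median-ratio scaling IGF1R turned to -0.077, and with length and GC accounted for EGFR (-0.025), ERBB3 (-0.036) and IGF1R (-0.33) were below 0, which left 3 of 6 above. With 1 library per condition these differences were not tested.

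**Figure D2:**
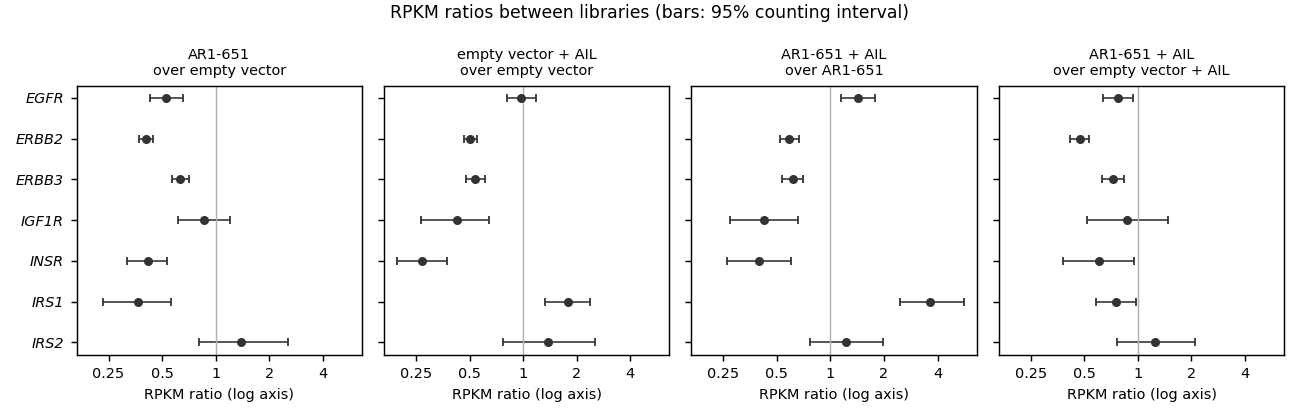
Points give the RPKM ratio of 2 libraries on a log axis, 1 comparison per panel, and bars its exact 95% counting interval; the grey line is a ratio of 1. With AIL the bars of ERBB2, ERBB3, IGF1R and INSR lie below 1 and the bar of IRS1 above 1 in both backgrounds, and ERBB2 has a ratio of 0.405 and 0.470 in the comparisons of AR1-651 with empty vector.

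The effect of AR1-651 was compared next, without and with AIL. Without AIL the counting interval lay below 1 for 5 of 7 genes, all but IGF1R and IRS2, against 45.3% of genes with a known length, and above 1 for none (18.3% of those). ERBB2 alone was at least 2-fold lower on the log2 scale (-1.27, with 11.6% of all genes that low), followed by INSR at -0.91, EGFR at -0.71, IRS1 at -0.70 and ERBB3 at -0.63. No member was at least 2-fold higher (4.01% of all genes). The median of the 7 genes was -0.70 and that of all genes -0.30 (-0.51 and -0.09 with median-ratio scaling, under which IGF1R turned from -0.11 to 0.03), and the share of all RPKM in ribosomal protein genes was 33.0% in the AR1-651 library and 22.3% to 25.5% elsewhere.
These are long transcripts, of 4792 nt for ERBB2 to 12235 nt for IGF1R, and the change with AR1-651 went with transcript length across all genes, from a median of 0.17 in the shortest sixth to -0.69 in the longest sixth, which begins at 5579 nt and holds 5 of the 6 members that reached 1 RPKM. Once the part of the change that follows length and GC content was subtracted, the median of those 6 members was -0.08. ERBB2 then had -0.62 and INSR -0.29, EGFR, ERBB3 and IRS1 lay between -0.10 and -0.04, and IGF1R turned to 0.58.
With AIL present, ERBB2 was again at least 2-fold lower with AR1-651 (-1.04, with 3.53% of all genes that low) and lay at the 3.02 percentile of all genes. It was the only member past the threshold in either direction (1.46% of all genes were at least 2-fold higher). The other members lay between -0.43 for ERBB3 and 0.14 for IRS2, with counting intervals below 1 for 5 of 7 genes, against 28.2% of genes with a known length. With the shortest annotated transcripts this count was 2, ERBB2 and IRS1. The change of ERBB2 was -0.50 once length and GC were accounted for and -0.98 with median-ratio scaling, which ends the 2-fold call.

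**Figure D3:**
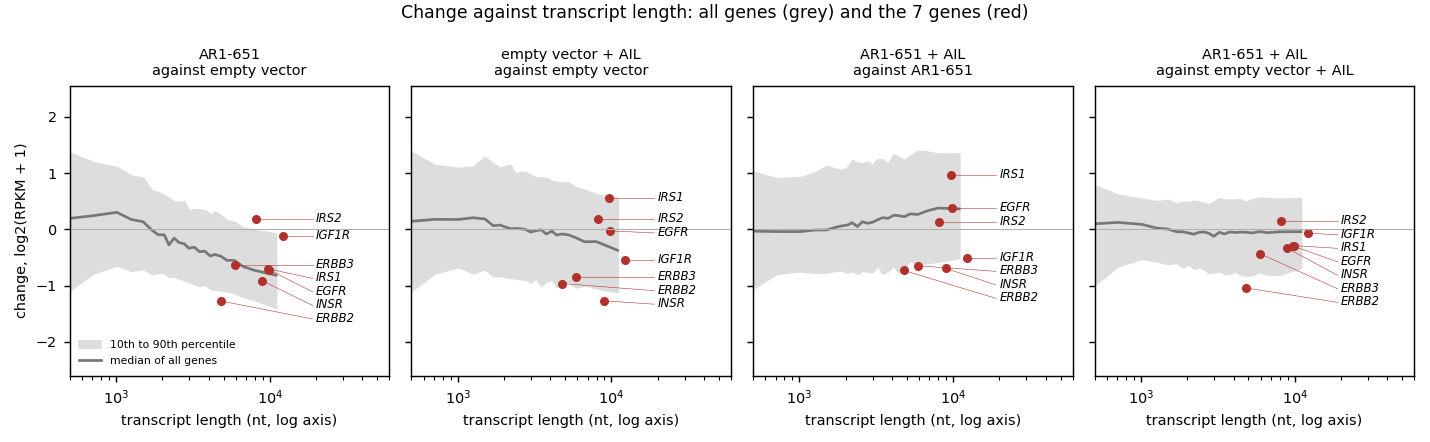
The log2(RPKM + 1) change of each of the 7 genes (red) is set against its transcript length in nt on a log axis, 1 comparison per panel, with the median (line) and the 10th to 90th percentiles (band) of all genes in 24 length bins. In AR1-651 against empty vector the line falls with length and EGFR, ERBB3 and IRS1 lie near it while ERBB2 lies below the band. Below the band also lie INSR with AIL in empty vector cells, INSR, ERBB2 and ERBB3 with AIL in AR1-651 cells, and ERBB2 in AR1-651 + AIL against empty vector + AIL; IRS2 lies above it in the first comparison, and the band ends before the length of IGF1R.

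Of the other genes of these pathways, listed by role with earlier results of these data known, the ligands were mostly low: 5 of 11 ERBB ligands reached 1 RPKM in any library. HBEGF, a ligand of EGFR and ERBB4, rose with AIL from 3.13 to 19.3 RPKM with empty vector and from 3.03 to 14.3 with AR1-651 (log2 changes 2.30 and 1.93). In each background 2 of those 5 ligands were at least 2-fold higher with AIL (9.53% and 14.9% of all genes), none lower. Listed genes under 1 RPKM in all libraries could not reach 2-fold on this scale. The shares of all genes leave such genes out, whereas list sizes and list medians take them in. The median change of the ERBB ligands was 0.06 with empty vector and 0.13 with AR1-651, against 0 and 0.06 over all 19801 genes.
Among 10 genes of insulin and IGF ligands, their binding proteins and IGF2R, 4 reached 1 RPKM. IGF2R, the receptor that clears IGF2 and sorts lysosomal enzymes, fell with AIL from 37.3 to 5.74 RPKM and from 21.4 to 3.80 RPKM (-2.51 and -2.22), and no other gene of this list changed at least 2-fold. IGFBP2, the most abundant binding protein, had 127, 107, 144 and 98.9 RPKM in the order of the libraries given above. The median change of this list with AIL was -0.19 and 0.08.

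Adaptors other than IRS1 and IRS2 numbered 19, of which 17 reached 1 RPKM. With AIL 1 was at least 2-fold higher in empty vector cells and 3 in AR1-651 cells, none lower, where 9.53% and 14.9% of all genes were that much higher. The median changes were 0.01 and 0.50 (the latter 0.32 with median-ratio scaling). GRB7, an adaptor that binds ERBB2 and lies on the same chromosome with 1 protein-coding gene between them (MIEN1), went from 6.02 to 14.7 RPKM with AIL in empty vector cells and from 2.46 to 7.59 in AR1-651 cells, so that it was higher with AIL (1.16 and 1.31) where ERBB2 was lower. NCK1 (0.72 and 1.88) and CRK (0.73 and 1.01), adaptors of SH2 and SH3 domains, were also higher in AR1-651 cells with AIL. GRB2, which links receptors to SOS and RAS, was the most abundant and had 65.7, 66.3, 78.0 and 64.3 RPKM.
Between AR1-651 and empty vector 4 adaptors were at least 2-fold lower (11.6% of all genes), among them SH2B1 (-1.14) and GRB7 (-1.02), with a median of -0.67 over the list and -0.18 over all genes of the files (-0.42 and -0.05 with median-ratio scaling).
PI3K subunits and phosphoinositide phosphatases split. PIK3R2, a regulatory subunit, fell with AIL in both backgrounds, from 78.4 to 22.2 and from 30.6 to 9.50 RPKM (-1.77 and -1.59). PIK3R1, another regulatory subunit, rose in AR1-651 cells from 26.2 to 135 RPKM (2.32) and had 48.2 and 72.6 RPKM in empty vector cells (0.58). PIK3CB, a catalytic subunit, changed by -1.34 and -0.63. Of the 12 genes, 11 reached 1 RPKM. With AIL 2 were at least 2-fold lower and none higher in empty vector cells, and 1 lower and 2 higher in AR1-651 cells. The shares of all genes were 9.03% lower and 9.53% higher, then 5.74% and 14.9%. The medians over the 12 were -0.02 and 0.09 (the latter -0.05 with median-ratio scaling). With AR1-651 against empty vector 4 were at least 2-fold lower, PIK3R2 (-1.33), PIK3CD (-1.09), PDPK1 (-1.005) and INPPL1 (-1.001), and the median was -0.75 (-0.51 with median-ratio scaling), where 11.6% of all genes were that low.
Of 10 genes of RAS, RAF, MEK and ERK, HRAS was the most abundant by the mean of the libraries, though below MAP2K2 (110 RPKM) in untreated empty vector cells, with 60.1, 131, 91.1 and 132 RPKM. It was the 1 gene at least 2-fold higher with AIL in empty vector cells (1.11), and BRAF (1.79) was among the 2 in AR1-651 cells, with none lower (higher among all genes: 9.53% and 14.9%). The median changes were -0.04 and 0.03 (the latter -0.18 with median-ratio scaling).

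Genes listed here as brakes of these receptors, a role not examined in these data, moved in both directions with AIL. Of 16, 14 reached 1 RPKM. With AIL 4 were at least 2-fold higher and 3 lower in empty vector cells, and 5 higher and 2 lower in AR1-651 cells. All genes had the shares 9.53% and 9.03%, then 14.9% and 5.74%. The medians were 0.33 and 0.51 (the latter 0.34 with median-ratio scaling). ERRFI1, an inhibitor of the EGFR kinase, went from 15.3 to 32.5 and from 16.2 to 32.0 RPKM (1.04 and 0.94). LRIG3 (1.57 and 1.91), the phosphatase PTPN2 (1.12 and 1.67), the ubiquitin ligase CBLB (0.81 and 1.65), SOCS6 (0.52 and 1.43) and SOCS1 (1.48 and 1.33, from an estimated 1 to 29 reads a library) were higher with AIL.
LRIG1, which promotes the degradation of ERBB receptors, was lower, from 27.2 to 10.7 and from 29.5 to 7.68 RPKM (-1.27 and -1.81). PTPRF, a receptor phosphatase of the insulin receptor, was also lower (-1.52 and -1.48). GRB10, an inhibitor of insulin and IGF receptors and the most abundant of the list, went from 165 to 73.1 RPKM with AIL in empty vector cells and from 65.2 to 41.0 in AR1-651 cells (-1.17 and -0.66).
Receptor tyrosine kinases other than the 5 described numbered 42, with ERBB4 (0 to 0.03 RPKM) among them, and 21 reached 1 RPKM. With AIL 5 of these 21 were at least 2-fold lower and 2 higher in empty vector cells, and 2 lower and 2 higher in AR1-651 cells. The shares of all genes were 9.03% lower and 9.53% higher, then 5.74% and 14.9%. Over all 42 the medians were 0 in both. DDR1, a collagen receptor and the most abundant by the mean of the libraries, though below EPHA6 (18.7) and RYK (18.6 RPKM) in AR1-651 + AIL, went from 84.6 to 38.3 and from 43.5 to 17.3 RPKM (-1.12 and -1.28). EPHB4 (-1.63 and -1.44) was lower too. PTK7 (-1.06 and -0.76) and MERTK (1.18 and 0.41) passed the threshold with empty vector only, and EPHB3 was 2-fold lower with AR1-651 both without (-1.26) and with AIL (-1.28), as was EPHA2 (-1.05 and -1.09).

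**Figure D4:**
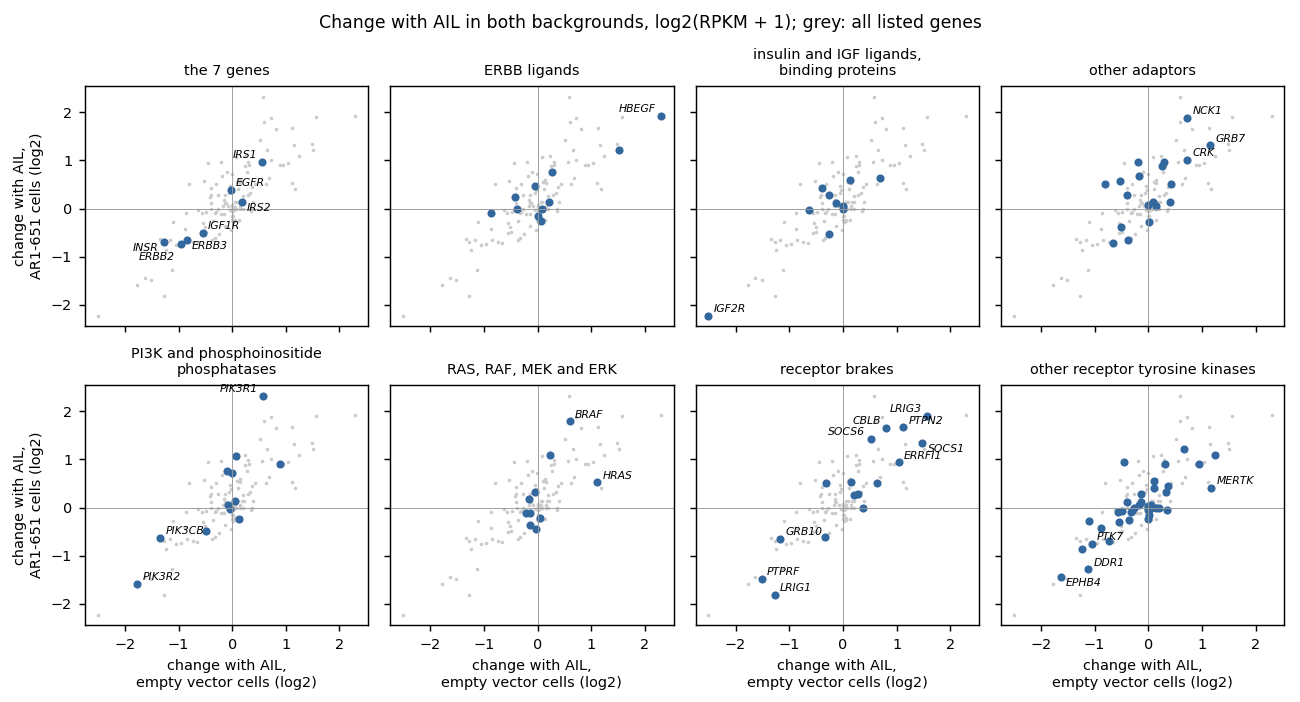
Each panel sets the change with AIL in empty vector cells (x axis) against that in AR1-651 cells (y axis), in log2(RPKM + 1), for 1 list in blue and all lists in grey; labels mark genes named in the text that changed at least 2-fold in either, and all 7 genes of the first panel. HBEGF is at the upper right (2.30 and 1.93) and IGF2R at the lower left (-2.51 and -2.22), while ERBB2, ERBB3, INSR and IGF1R lie together in the lower left quadrant.

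The genes whose pattern over the 4 libraries was most like that of each member were sought among the 7497 genes above 5 RPKM throughout (5 included), by Euclidean distance between centred log2(RPKM + 1) values. ERBB2 was nearest to PRRC2B (distance 0.09, with 53.8, 26.4, 19.8 and 11.9 RPKM) and RXRA (0.10), and ERBB3 to CNTROB (0.04) and LAMC1 (0.05). INSR was nearest to ACAD10 (0.08) and PIP4K2B (0.12). IRS1 was nearest to TCAF1 (0.05, with 17.7, 26.4, 10.7 and 22.5 RPKM) and ARIH1 (0.08), and EGFR to PPP6C (0.04) and TBC1D20 (0.04). For IGF1R the nearest were MANSC1 (0.02) and RRP7BP (0.04), and for IRS2 they were PGM1 (0.04) and MRPL48 (0.05). This scale understates the change of low members, so a near gene can have moved less as a ratio of RPKM. With AIL in empty vector cells MANSC1 went from 19.59 to 12.95 RPKM, and IGF1R from 1.23 to 0.520. Among the 7 genes themselves ERBB3 and INSR were closest (0.31) and INSR and IRS1 farthest apart (1.75). With 4 libraries these distances only describe.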

How the data were processed

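RNA was measured in 4 LNCaP libraries, made with a stranded kit for ribosomal RNA removal (the labels also describe selection on oligo(dT) beads) and sequenced on the Illumina HiSeq2000. The authors deposited RPKM per Entrez gene, rounded to 2 decimals. The submitters' processing notes name BWA 0.7.10-r789 and hg19; the counting tool is not given in the sources used here. RPKM leaves differences in RNA composition in place. Symbols came from RefSeq (GRCh38.p14), transcript lengths, GC content and gene positions from GENCODE release 29 (GRCh38), through RefSeq identifiers; positions entered no calculation.

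Changes are differences of log2(RPKM + 1), and a gene had to reach 1 RPKM somewhere to be kept (14626 of 19801 did). A call is a 2-fold change on this scale. The value of 1 read was found from microRNA genes of 54 to 110 nt, where RPKM multiplied by the length less 36 nt took whole multiples of 1 step within 0.02 for 64 of 96, 48 of 68, 48 of 73 and 32 of 46 genes with under 6 reads, in the order empty vector, empty vector + AIL, AR1-651, AR1-651 + AIL. Read numbers used the longest matched transcript. Summed over genes they came to 5.86, 5.65, 6.69 and 6.79, in units of 1e6 reads, above the estimated depth, so they are too high for some genes. With the shortest they summed to 4.58, 4.44, 5.18 and 5.27. Ratio intervals are exact binomial intervals.

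Members and lists were chosen with earlier results of these data known; listed genes without a row in the files were not analysed here. Named were the 7 genes, any listed gene with a 2-fold change in a comparison and RPKM of at least 5 in a library, the most abundant gene of each list, and 2 genes most like each member; 2 genes that meet this rule are counted only. Some items are not reported here. Alternatives were a pseudocount of 0.1, median-ratio scaling, ribosomal protein genes left out, removal of the length and GC trend (polynomials of degree 3 in the ranks), no filter, RPKM of at least 5 and a 1.5-fold threshold; the shortest transcript was added after seeing the data. Calculations were tested on simulated data. Python 3.11.15, NumPy 2.4.6, SciPy 1.17.1, pandas 2.3.3 and matplotlib 3.10.9 were used.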

Additional observations from a re-analysis of the deposited data

Results flagged for a closer look

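The change of EGFR with AIL had opposite signs in the 2 backgrounds, -0.03 with empty vector and 0.39 with AR1-651, a difference of 0.42 on the log2(RPKM + 1) scale that was not tested. The ratio interval with empty vector, 0.809 to 1.18, took in 1, and once length and GC were accounted for the changes were 0.20 and 0.18, of the same sign. Of all 14626 genes, 27.8% had opposite signs. GRB2 (difference -0.29) and PDPK1 (0.14) also changed sign, GRB2 from 0.01 to -0.28 and PDPK1 from -0.08 to 0.06. They were not the only such genes in the lists. EPHA6 went from -0.45 to 0.95 and the luminal marker KLK3 from 0.08 to -1.31. None of these differences was tested.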

How the results depend on the processing

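No paired analysis was possible because each condition had 1 library, and for the same reason no library could be left out. Counts and medians below are over the members, without IRS2 where the length and GC trend was removed.
With a pseudocount of 0.1, which weighs low genes more, at least 2-fold lower were 3 members for AR1-651 against empty vector (median -0.90), 2 with AIL in empty vector cells (-0.89) and 2 with AIL in AR1-651 cells (-0.69, with 1 higher). At a 1.5-fold threshold the lower members were 5, 3 and 3, with 1 higher with AIL in AR1-651 cells. With ribosomal protein genes left out 2 members were lower in each of the first 2 comparisons, and with RPKM of at least 5 required none was lower with AIL in empty vector cells. Median-ratio scaling gave medians of -0.51 for AR1-651 against empty vector and -0.62 with AIL in AR1-651 cells, and 0 lower members for AR1-651 against empty vector with AIL. With the length and GC trend removed no member was 2-fold lower in either comparison of AR1-651 with empty vector (medians -0.082 and -0.10), and the median with AIL in empty vector cells was -0.43.
The difference between backgrounds in the change with AIL moved under several settings. With the trend removed it turned to -0.025 for EGFR, -0.036 for ERBB3 and -0.33 for IGF1R, and was 0.13 for ERBB2, 0.19 for INSR and 0.038 for IRS1. With median-ratio scaling it was 0.26 for EGFR, 0.028 for ERBB2, 0.0013 for ERBB3, -0.077 for IGF1R and 0.43 for INSR. With ribosomal protein genes left out it was 0.53 for EGFR, 0.38 for ERBB2, 0.34 for ERBB3 and 0.69 for INSR, and with a pseudocount of 0.1 it was 0.53 for EGFR and 0.91 for IRS1. The causes were not tested. Depth limited IGF1R, IRS1 and IRS2, at 22 to 131 estimated reads a library.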
